A study of Mus musculus with 6 samples.

Results

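Genes that mark dividing cells and newborn neurons were followed through whole cortical hemispheres of adult and middle-aged mice, 9 of the 38355 genes in the count tables. They were chosen by name: Mki67, Top2a and Cdk1 for proliferation, Dlx1 and Dlx2 for the interneuron lineage, and Dcx, Sox11, Igfbpl1 and Neurod1 for immature neurons. The samples came from C57BL/6 mice, the inbred wild-type strain, for which the labels give no transgene or treatment, with 3 samples at 6 months and 3 at 16 months. All mice were anesthetized with chloral hydrate before dissection, polyadenylated RNA of the hemispheres was sequenced, and the values are read counts per gene. By the study's account each sample is a brain, so p-values measure the spread between 3 brains of each age. Slc17a7, the vesicular glutamate transporter of cortical excitatory neurons, stood at 976 ± 43.4 CPM (counts per 1000000 counts on genes, TMM-scaled; SD, n = 3) at 6 months and 1090 ± 148 CPM at 16 months.

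Cell division in the adult forebrain is largely restricted to stem cell niches in the subventricular zone and the dentate gyrus, and to oligodendrocyte precursors, which keep dividing throughout the grey matter. Mki67 encodes the chromosome surface protein Ki-67, Top2a the topoisomerase that untangles replicated DNA, and Cdk1 the kinase that drives entry into mitosis. Dlx1 and Dlx2 are homeobox factors that specify interneurons in the embryonic ganglionic eminences, and Dlx1 is kept on in many mature interneurons. Dcx encodes the microtubule-associated protein doublecortin of migrating neurons, Sox11 a transcription factor of neuronal differentiation, and Neurod1 a basic helix-loop-helix factor of the excitatory lineage, whereas Igfbpl1 is a secreted protein used as a marker of newborn neurons.

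Many genes that are switched on for mitosis carry CCAAT boxes and the element TTTGAA near their start, and the promoters of the proliferation genes are shown for these letters. The sequences are the 250 bases before the gene start from RefSeq (GRCm38.p6, 5′ to 3′ on the coding strand, which is the minus strand for all 3 genes), and capitals mark CCAAT or TTTGAA on either strand.
Mki67, chr7:135716380-135716629: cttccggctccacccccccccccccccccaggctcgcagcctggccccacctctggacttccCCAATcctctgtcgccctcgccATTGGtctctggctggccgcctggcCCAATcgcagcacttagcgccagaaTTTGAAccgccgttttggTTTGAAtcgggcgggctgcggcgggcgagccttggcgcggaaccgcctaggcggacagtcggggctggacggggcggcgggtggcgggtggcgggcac
Top2a, chr11:99024190-99024439: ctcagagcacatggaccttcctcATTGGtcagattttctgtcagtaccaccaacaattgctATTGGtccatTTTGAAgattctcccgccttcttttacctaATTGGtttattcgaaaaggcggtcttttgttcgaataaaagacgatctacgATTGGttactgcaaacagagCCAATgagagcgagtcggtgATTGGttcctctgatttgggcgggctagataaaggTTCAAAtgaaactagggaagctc
Cdk1, chr10:69352913-69353162: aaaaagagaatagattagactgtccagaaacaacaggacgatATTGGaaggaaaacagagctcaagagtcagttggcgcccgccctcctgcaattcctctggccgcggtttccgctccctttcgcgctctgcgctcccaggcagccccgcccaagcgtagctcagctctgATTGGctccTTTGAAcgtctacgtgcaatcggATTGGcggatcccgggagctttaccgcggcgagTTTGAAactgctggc
The Top2a window held 6 CCAAT and 2 TTTGAA matches, and the Mki67 and Cdk1 windows held 3 and 2 each. In the Top2a window the CCAAT matches began 227, 189, 149, 98, 78 and 58 bases before the gene start, and in the Cdk1 window the TTTGAA matches began 71 and 15 bases before the RefSeq start. GENCODE places the start of Cdk1 at 69352938, inside this window, so the match at 15 bases lies within the gene by that annotation. Of 32851 such windows of 27025 genes, 33.8% held CCAAT, 16% held TTTGAA and 5.55% held both. For the mitosis genes listed below the shares were 72.4%, 27.6% and 24.1% of 29 windows. For the DNA replication genes they were 51.9%, 11.1% and 7.41% of 27 windows, so most windows of either list lacked TTTGAA. Among the other members with an entry, Sox11 held 1 match of each kind, Dlx2 held 1 CCAAT, and Dcx held 1 CCAAT in 1 of its windows, while Dlx1 and Neurod1 held neither. These are matches of letters and not sites, and no binding was measured here.

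The totals on genes lay between 29797253 and 46519280 counts per sample, so that 3 counts, used as the floor, equalled 0.0645 to 0.101 CPM. All 9 genes passed edgeR's filter on low counts, among 17120 genes tested. Per exon length, which allows genes to be ordered, Dlx1 was highest at 6 months with 8.20 ± 0.0181 RPKM (SD, n = 3), followed by Dcx with 4.92 ± 0.110, Neurod1 with 4.43 ± 0.165 and Dlx2 with 1.26 ± 0.202 RPKM. Sox11 followed at 0.454 ± 0.0401 RPKM. The remaining genes, Mki67 with 0.242 ± 0.0642, Top2a with 0.140 ± 0.0848, Igfbpl1 with 0.114 ± 0.0906 and Cdk1 with 0.0530 ± 0.0227 RPKM, lay close together, and neighbours in this order did not differ beyond their spread. At 16 months the mean of Neurod1 (4.70 ± 0.437 RPKM) lay above that of Dcx (4.38 ± 0.382 RPKM), within the spread of both.

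None of the 9 genes passed an adjusted p of 0.05 between the ages, against 1.67% of all genes tested in the quasi-likelihood test of edgeR, adjusted over all genes by the Benjamini-Hochberg method, and DESeq2 called 1. Without adjustment, 5 of the 9 had a p under 0.05 (Mki67, Top2a, Sox11 and Igfbpl1 with higher and Dcx with lower means at 16 months), against 17.4% of all genes. In 6 of the 9 the samples of the 2 ages did not overlap, which was so for 23.7% of all genes: Mki67, Top2a, Cdk1 and Sox11 lay higher and Dlx1 and Dcx lower at 16 months. In homogenised tissue a change in the number of cells cannot be told apart from a change of RNA per cell.

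Mki67 (chr7:135689784-135716361, minus strand, GRCm38 as for all genes here) had the highest mean per exon length of the proliferation genes. It had 149, 62 and 86 counts in replicates 1, 2 and 3 at 6 months, or 3.18, 2.07 and 2.05 CPM, and 142, 121 and 118 counts at 16 months, or 4.28, 3.86 and 3.45 CPM. Each 16-month sample lay above each 6-month sample, and 6-month replicate 1 lay well above the other samples of its age. The means were 2.43 ± 0.646 and 3.86 ± 0.414 CPM (SD, n = 3 each), a ratio of 1.59. The log2 fold change of Mki67 was 0.64 (SE 0.175, 95% interval 0.25 to 1.03) with an unadjusted p of 0.00441 and an adjusted p of 0.102 (edgeR).

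Top2a (chr11:98992943-99024189, minus strand) had a wider difference, and 1.4% of its exon bases are shared with Gm23451. At 6 months it had 100, 21 and 40 counts, or 2.13, 0.700 and 0.953 CPM, and at 16 months 127, 82 and 75 counts, or 3.83, 2.61 and 2.19 CPM. Replicate 1 was the highest sample at each age, and the highest 6-month sample came close to the lowest 16-month sample. The mean went from 1.26 ± 0.764 to 2.88 ± 0.849 CPM, a ratio of 2.28, with a log2 fold change of 1.11 (SE 0.340, interval 0.35 to 1.87) and an adjusted p of 0.141 (edgeR). Top2a was the 1 member that DESeq2's Wald test called, with a log2 fold change of 1.17 and an adjusted p of 0.0262, where 2.67% of all genes were called.

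Cdk1 (chr10:69335146-69352938, minus strand) was the rarest of the 9. It had 16, 4 and 13 counts at 6 months and 13, 12 and 12 counts at 16 months, or 0.341, 0.133 and 0.310 against 0.392, 0.383 and 0.351 CPM. The samples did not overlap, but the gap between the highest 6-month and the lowest 16-month sample was far smaller than 1 SD of the 6-month samples. Its log2 fold change of 0.44 had an interval of −0.32 to 1.19 (edgeR), which spans both a lower level and one more than 1 log2 unit higher. Without 6-month replicate 2, the lowest sample, it was 0.20, and without 6-month replicate 1 it was 0.67.

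Among the 3 proliferation genes, the spread between samples exceeded counting error most in Top2a. Its coefficient of variation was 60.6% at 6 months and 29.5% at 16 months, where counting alone gives 16.6% and 10.6%. For Mki67 it was 26.6% and 10.7%, where counting gives 10.7% and 8.90%. For Cdk1 it was 42.9% at 6 months, close to what counting alone gives, and 5.70% at 16 months, below the 28.5% of counting. Without 6-month replicate 1 the log2 fold change was 0.91 for Mki67 (adjusted p = 0.0523, edgeR) and 1.77 for Top2a (adjusted p = 0.0565, edgeR). It was 0.55 (adjusted p = 0.339, edgeR) and 0.88 (adjusted p = 0.387, edgeR) without 6-month replicate 2. With 6-month replicate 3 left out it was 0.52 (adjusted p = 0.374, edgeR) and 0.91 (adjusted p = 0.438, edgeR). Without 16-month replicate 1 it was 0.55 for Mki67 (adjusted p = 0.0702, edgeR) and 0.84 for Top2a (adjusted p = 0.104, edgeR). Leaving out 16-month replicates 2 and 3 in turn gave 0.64 and 0.72 for Mki67 and 1.16 and 1.28 for Top2a.

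**Figure D1:**
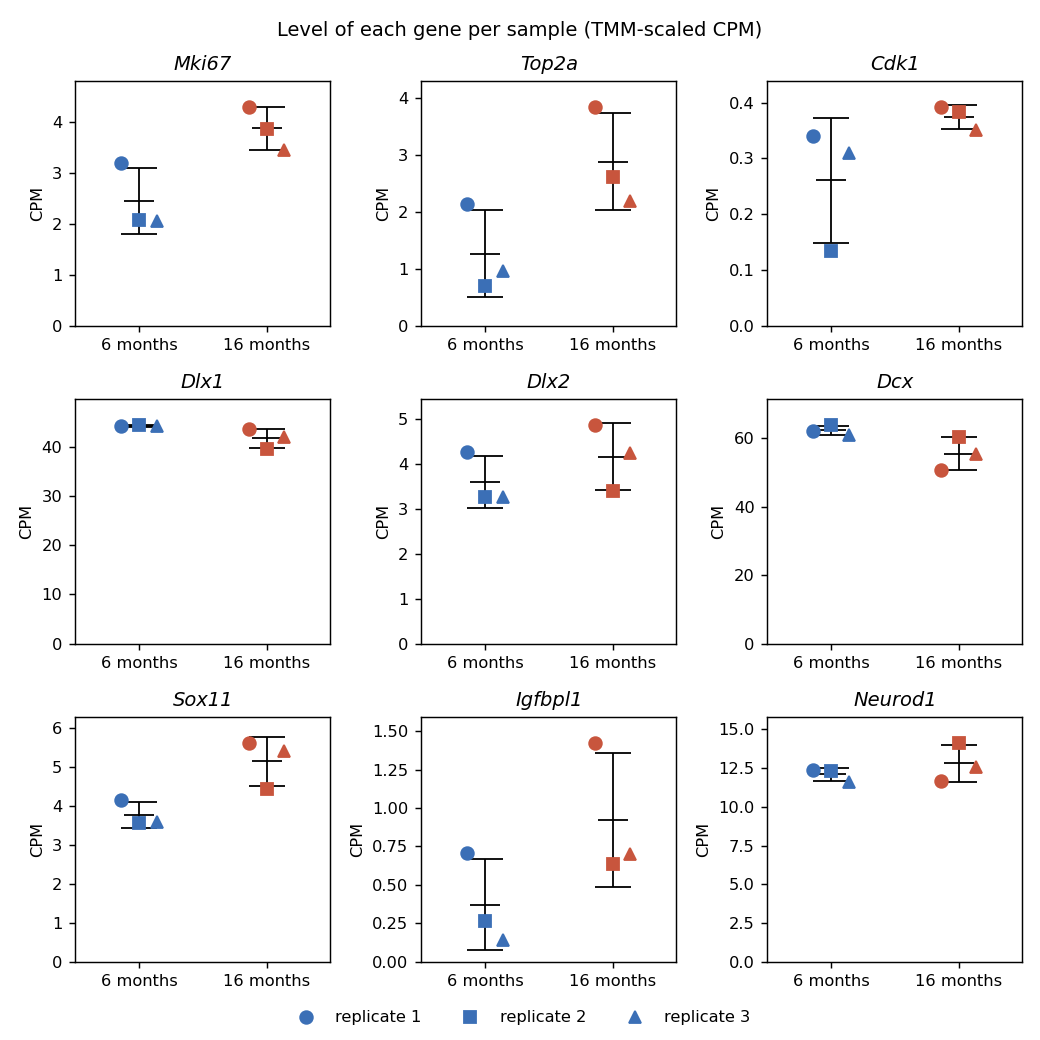
Level of each gene in every sample, in TMM-scaled CPM from 0 on the y axis, by age on the x axis; circles, squares and triangles are replicates 1, 2 and 3, and the bars are the mean and SD of 3 samples. All 16-month points of Mki67, Top2a, Cdk1 and Sox11 lie above the 6-month points, those of Dlx1 and Dcx lie below, and those of Dlx2, Igfbpl1 and Neurod1 overlap.

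The rest of the division machinery was followed in 32 mitosis genes (cyclins, spindle and kinetochore genes), 29 of which were tested. None was called by edgeR, and 4 had an unadjusted p under 0.05, where 17.4% of all genes did. Of the 29, 21 had a positive log2 fold change, with a median of 0.106. The median of all tested genes was 0.00141 and 50.3% were positive. The most abundant members, Racgap1 (a regulator of cytokinesis) and Nusap1 (a spindle protein), had log2 fold changes of 0.07 ± 0.0800 and 0.18 ± 0.120 (SE). The widest differences belonged to Knl1, a kinetochore scaffold, with 15, 4 and 14 counts at 6 months and 19, 11 and 15 counts at 16 months (log2 fold change 0.72, adjusted p = 0.326, edgeR), and to Cenpf, a kinetochore protein, with 67, 20 and 31 against 58, 51 and 43 counts (0.65, adjusted p = 0.263). Cenpf repeated the high value of 6-month replicate 1 seen in Mki67 and Top2a. The untested genes were Bub1, Aurkb and Ndc80, and Aurkb, the mitotic kinase of the chromosomal passenger complex, had 13, 3 and 3 counts at 6 months and 12, 9 and 6 at 16 months. The summed level of the mitosis list was 62.5 to 67.8 CPM at 6 months and 68.7 to 71.6 CPM at 16 months, without overlap. This was not particular to mitosis genes, since the sums of the cyclin, GABAergic lineage and glutamatergic lineage lists below also lay apart and higher. For the glutamatergic lineage list the sum was 393 to 415 CPM at 6 months and 422 to 429 CPM at 16 months.

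The summed level of DNA replication genes overlapped between the ages. All 27 were tested with edgeR, none was called, 4 had an unadjusted p under 0.05, and 16 had a positive log2 fold change with a median of 0.0859. The sum was 164 to 165 CPM at 6 months and 161 to 167 CPM at 16 months. Rrm1, a subunit of ribonucleotide reductase, and Pcna, the sliding clamp of DNA polymerases, were the most abundant and had log2 fold changes of −0.10 ± 0.0653 and −0.17 ± 0.0766 (SE). Uhrf1, a maintenance factor of DNA methylation, had the widest difference, at 0.53 ± 0.304, and Mcm6, a subunit of the replicative helicase, had 0.39 ± 0.0919 with an adjusted p of 0.0711 (edgeR).

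Among 14 cyclins, CDK partners and inhibitors, of which 13 were tested, 2 inhibitors were called in opposite directions. Of all genes tested 0.783% were called higher and 0.888% lower. Cdkn1a, which encodes p21 and responds to p53, rose from 26.9, 26.8 and 27.7 CPM at 6 months to 36.9, 36.1 and 35.3 CPM at 16 months, a log2 fold change of 0.41 (SE 0.0536, adjusted p = 0.00584, edgeR). Cdkn1c, which encodes p57, fell from 5.33 ± 0.204 to 3.62 ± 0.287 CPM, a log2 fold change of −0.55 (SE 0.0950, adjusted p = 0.0224, edgeR). Ccnd2, the most abundant cyclin of the list, had 85.1 ± 2.49 and 97.3 ± 0.669 CPM (log2 fold change 0.19, adjusted p = 0.0875, edgeR). Cdkn2a, which encodes p16 and p19ARF, was the untested gene, with 15, 14 and 7 counts at 6 months and 1, 4 and 3 counts at 16 months.

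**Figure D2:**
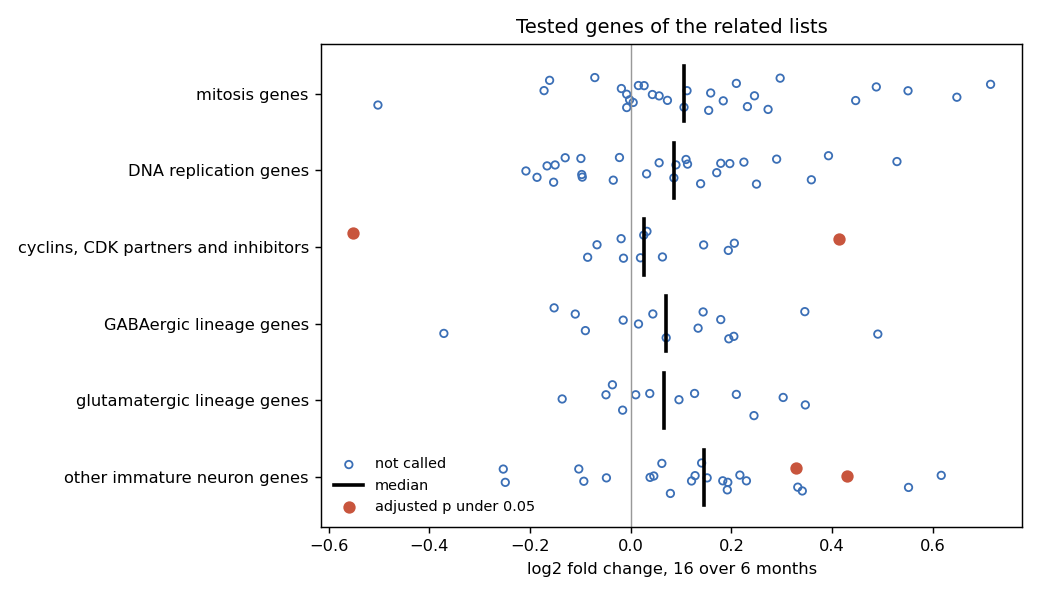
Log2 fold change (16 over 6 months, x axis) of every tested gene of 6 lists related to division and neuronal differentiation (y axis); open circles were not called, filled circles had an adjusted p under 0.05, and the black bar is the median of the list. All medians lie between 0.0260 and 0.147, and the called genes are Cdkn1a, Cdkn1c, Dpysl3 and Marcksl1.

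Neither interneuron lineage factor passed the test. Dlx1 (chr2:71528113-71533981, plus strand) had 44.2, 44.4 and 44.2 CPM at 6 months and 43.6, 39.6 and 42.0 CPM at 16 months, from 1241 to 2073 counts per sample. The 16-month samples all lay below, the highest of them by less than 1 CPM, and the log2 fold change of −0.09 (SE 0.0559, interval −0.21 to 0.04) had an adjusted p of 0.478 (edgeR). It was −0.05 without 16-month replicate 2. The 6-month samples of Dlx1 differed by 0.221% (coefficient of variation), less than the 2.43% that counting alone gives. Exons of Dlx1 share 6.2% of their bases with Dlx1as, a transcript of the opposite strand, whose own level was 9.04 ± 0.986 and 8.34 ± 1.22 CPM, and the strand setting of the counting is not given in the sources used here.

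Dlx2, the neighbour of Dlx1 (chr2:71543408-71546754, minus strand), had far fewer counts, from 98 to 200 per sample, or 4.26, 3.26 and 3.26 CPM at 6 months and 4.85, 3.38 and 4.24 CPM at 16 months. The ages overlapped, and the log2 fold change of 0.20 had an interval of −0.15 to 0.54 (edgeR). It was 0.07 without 16-month replicate 1, 0.32 without 16-month replicate 2 and 0.35 without 6-month replicate 1. Replicate 1 was the highest sample at each age, as for Mki67 and Top2a.

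Of 16 other genes of the GABAergic lineage, 15 were tested with edgeR and none was called, 3 had an unadjusted p under 0.05, with a median log2 fold change of 0.0706 and 10 positive values. Meis2, a homeobox factor of the ganglionic eminences, had 117 ± 2.23 and 129 ± 7.33 CPM, and Etv1 had 46.2 ± 0.435 and 46.8 ± 4.51 CPM. Lhx8, a factor of the medial eminence and of basal forebrain cholinergic neurons, had 38, 11 and 20 counts at 6 months and 41, 18 and 21 at 16 months. Nkx2-1, a factor of the same territory, had 63, 19 and 19 against 34, 17 and 13 counts. Replicate 1 held the highest count of Lhx8 and Nkx2-1 at each age. The untested gene, Gsx2, a progenitor factor of the lateral eminence, had 3, 4 and 6 counts at 6 months and 10, 7 and 10 at 16 months.

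The immature neuron genes differed in direction, and none was called. Dcx (chrX:143855842-143933311, minus strand) was lower at 16 months, with 61.9, 63.7 and 61.0 CPM at 6 months and 50.6, 60.3 and 55.3 CPM at 16 months, from 1679 to 2904 counts per sample. The lowest 6-month sample lay above the highest 16-month sample by less than 1 CPM. The log2 fold change was −0.17 (SE 0.0673, interval −0.32 to −0.02) with an unadjusted p of 0.0329 and an adjusted p of 0.239 (edgeR). The 16-month samples of Dcx had a coefficient of variation of 8.73%, where counting gives 2.35%, and replicate 1, the lowest, was also the sample with the highest correlation across genes between GC content and the deviation from the mean of its age (r = 0.588). With offsets for GC content and transcript length the log2 fold change of Dcx was −0.12, with a smaller SE of 0.0350 (adjusted p = 0.0354, edgeR). It was −0.11 without 16-month replicate 1 (adjusted p = 0.280, edgeR) and −0.23 without 16-month replicate 2 (adjusted p = 0.0226, edgeR). The part of GC content in the lower level of Dcx was not tested.

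Sox11 (chr12:27334264-27342574, minus strand) lay higher at 16 months. It had 195, 107 and 151 counts at 6 months, or 4.16, 3.56 and 3.60 CPM, and 186, 139 and 185 counts at 16 months, or 5.61, 4.43 and 5.41 CPM. All 16-month samples lay above the 6-month samples, and the means were 3.77 ± 0.333 and 5.15 ± 0.630 CPM, a ratio of 1.37. The log2 fold change of 0.44 (SE 0.116, interval 0.18 to 0.70) had the lowest p of the 9 genes, 0.00352, and an adjusted p of 0.0941 (edgeR).

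Igfbpl1 (chr4:45809468-45826923, minus strand) had the largest ratio of the 9, 2.48, on few counts. It had 33, 8 and 6 counts at 6 months, or 0.704, 0.267 and 0.143 CPM, and 47, 20 and 24 counts at 16 months, or 1.42, 0.638 and 0.702 CPM. The ages overlapped because 6-month replicate 1 lay above 16-month replicates 2 and 3. The log2 fold change was 1.23 (SE 0.493, interval 0.13 to 2.33) with an adjusted p of 0.238 (edgeR). It was 2.22 without 6-month replicate 1 (adjusted p = 0.148), 0.77 without 16-month replicate 1 (adjusted p = 0.340) and 0.81 without 6-month replicate 3 (adjusted p = 0.569), all from the same edgeR test.

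Neurod1 (chr2:79452521-79456751, minus strand) had 12.4, 12.3 and 11.6 CPM at 6 months and 11.7, 14.1 and 12.6 CPM at 16 months. The ages overlapped, and the log2 fold change of 0.08 (SE 0.0810) had an interval of −0.10 to 0.26 and ranged from 0.01 without 16-month replicate 2 to 0.14 without 16-month replicate 1. Some of its exon bases are shared with Cerkl and Gm26755. The 13 other genes of the glutamatergic lineage, 12 of them tested, held no call in edgeR, 1 unadjusted p under 0.05 and a median log2 fold change of 0.0670. Tbr1, a factor of deep-layer projection neurons, had 118 ± 1.97 and 121 ± 3.50 CPM, and Neurod6, a relative of Neurod1, had 117 ± 5.40 and 115 ± 14.7 CPM. Nhlh1 and Nhlh2, transient factors of early neurons, had log2 fold changes of 0.35 ± 0.244 and 0.30 ± 0.297 (SE). Eomes, the marker of intermediate progenitors, was not tested, with 0, 3 and 5 counts at 6 months and 2, 4 and 6 at 16 months.

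**Figure D3:**
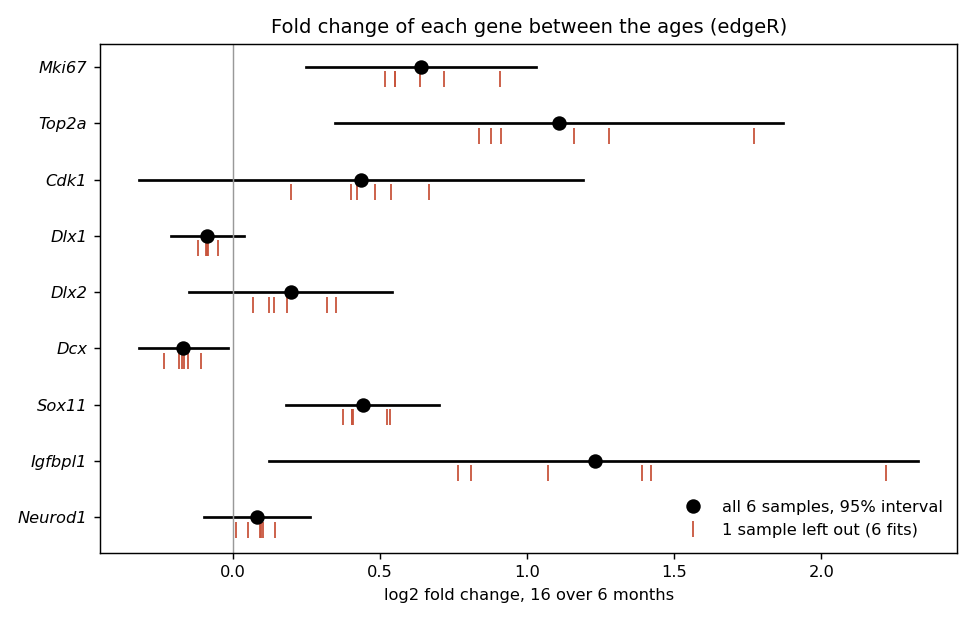
Log2 fold change (16 over 6 months, x axis) of the 9 genes (y axis), with black points and lines for the edgeR estimate and its 95% interval from all 6 samples, and red ticks for the 6 fits that each leave out 1 sample. The intervals of Mki67, Top2a, Sox11 and Igfbpl1 lie above 0 and that of Dcx below 0, before adjustment over all genes, and the ticks of Top2a and Igfbpl1 spread most.

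Other genes of immature neurons were more often above than below 0. Of 24, all tested, 19 had a positive log2 fold change, with a median of 0.147. Of the list 13 had an unadjusted p under 0.05 (17.4% of all genes did), and 2 were called, both higher, where 0.783% of all genes were called higher. The 13 include Elavl2 and St8sia4, which had lower means at 16 months (log2 fold changes −0.25 ± 0.109 and −0.25 ± 0.0922, SE). With offsets for GC content and length, 10 of the list were called higher and 3 lower, where 14.2% of all genes were called. Dpysl3, a collapsin response mediator of growth cones, rose from 39.0 ± 0.767 to 49.0 ± 0.294 CPM (log2 fold change 0.33, adjusted p = 0.0136, edgeR). Marcksl1, a regulator of actin in migrating cells, rose from 20.8, 19.4 and 19.8 CPM to 28.9, 24.5 and 27.6 CPM (log2 fold change 0.43, adjusted p = 0.0204). Sox4, the close relative of Sox11, had 381, 237 and 358 counts at 6 months and 493, 306 and 445 counts at 16 months (0.62, adjusted p = 0.0531), and Draxin, an axon guidance protein, had a log2 fold change of 0.55 (adjusted p = 0.230). Stmn2 and Elavl3, the most abundant of the list and also expressed by mature neurons, had log2 fold changes of 0.05 ± 0.0583 and 0.12 ± 0.0588 (SE). The summed level of the list was 2110 to 2130 CPM at 6 months and 2220 to 2270 CPM at 16 months.

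Markers of other cells and regions moved between the same samples. Their calls stand beside 0.783% of all genes called higher and 0.888% called lower. Oligodendrocyte precursor genes, 14 of the 15 listed being matched, summed to 426 to 442 CPM at 6 months and 486 to 561 CPM at 16 months, with 12 of 14 log2 fold changes positive, a median of 0.220, and calls for Gpr17, Neu4 and Tnr, all higher. Gpr17, a receptor of committed precursors, rose from 38.2 ± 1.37 to 59.5 ± 2.47 CPM (log2 fold change 0.64, adjusted p = 8.12e-04, edgeR). Dentate gyrus granule cell genes summed to 211 to 219 CPM and 259 to 272 CPM, with 9 of 10 positive, a median of 0.229, and calls for C1ql2, Dsp, Lct and Pdzd2. Thalamus genes summed to 133 to 134 CPM and 162 to 173 CPM, with 5 of 10 called higher, where 0.783% of all genes were. Choroid plexus genes, of which 5 of 10 were tested, summed to 16.8 to 18.0 CPM and 25.6 to 28.6 CPM. Ttr of that list, from 8.95 ± 0.572 to 17.8 ± 1.08 CPM, was called higher. None of these genes was at 0 in any sample. Their part in the levels of Mki67, Top2a, Sox11 and Igfbpl1 was not tested. The lists were chosen with earlier results of these data known, so their counts of calls are given as a description only.

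Stem cell and ependymal genes held no call for a higher level, where 0.783% of all genes were called higher and 0.888% lower. Of 18 neural stem cell genes, many of which astrocytes also express, 17 were tested, with a median log2 fold change of −0.0105. At 16 months 6 lay apart and lower and 3 apart and higher, where the ages did not overlap for 23.7% of all genes. The summed level of the list was 1040 to 1050 CPM at 6 months and 1100 to 1170 CPM at 16 months. Most of it came from Slc1a3, a glutamate transporter also abundant in astrocytes, with 730 ± 8.68 and 839 ± 39.7 CPM (adjusted p = 0.0914, edgeR). The genes apart and lower were Nes, Sox2, Vim, Hopx, Rfx4 and Gli1, and those apart and higher were Thbs4, Hes1 and Slc1a3. Tfap2c, the untested gene, had 0 or 1 counts in each sample. Gli1, a transcriptional effector of hedgehog signalling, fell from 2.03 ± 0.121 to 1.01 ± 0.157 CPM (log2 fold change −1.01, adjusted p = 0.0139, edgeR). The cells that carry these transcripts cannot be told from whole hemispheres. Ependymal genes summed to 21.5 to 23.1 CPM at 6 months and 18.6 to 19.7 CPM at 16 months, with Ccdc153 called lower. The summed level of olfactory bulb genes overlapped between the ages, at 149 to 164 CPM and 140 to 185 CPM, and nearly all of it was Synpr, a synaptic vesicle protein, with 151 ± 8.33 and 151 ± 23.2 CPM. Of the 6 bulb genes tested none was called by edgeR, 1 had an unadjusted p under 0.05 (Cdhr1, log2 fold change 0.40), and 5 had a positive log2 fold change, with a median of 0.0985. Striatal genes summed to 497 to 509 CPM and 518 to 542 CPM, with Six3 called higher. Cortical interneuron genes summed to 1170 to 1210 CPM at 6 months and 1280 CPM in each 16-month sample, with Calb2 called higher. That interneuron list leaves out Pvalb, the parvalbumin gene, so its sum does not describe cortical interneurons as a whole. The paper reports lower Pvalb transcript levels in the older cortex. Cortical excitatory genes overlapped, at 1770 to 1880 CPM and 1790 to 2090 CPM. Microglia genes summed to 440 to 451 CPM and 452 to 460 CPM with Aif1 called lower, and endothelial genes to 180 to 183 CPM and 171 to 176 CPM with Kdr called lower.

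**Figure D4:**
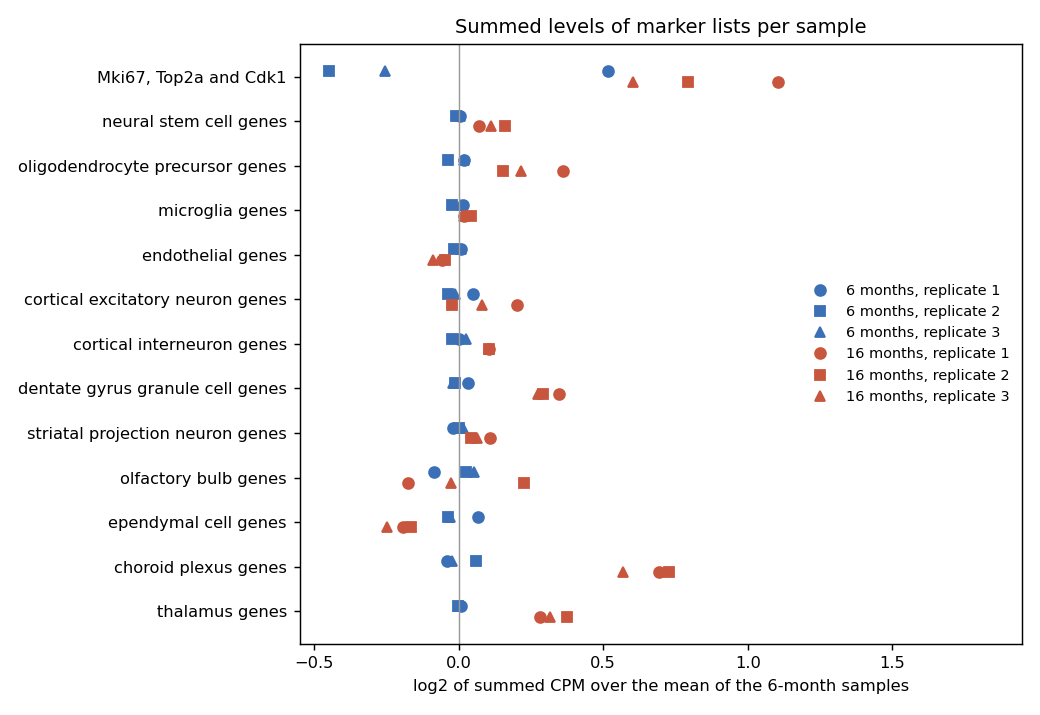
Summed level of each list per sample, as the log2 of summed CPM over the mean of the 6-month samples (x axis), for Mki67, Top2a and Cdk1 together and for lists of cell types and regions (y axis); blue is 6 months, red is 16 months, and symbols are replicates 1, 2 and 3. The proliferation genes spread most within an age, from 2.90 to 5.65 CPM at 6 months and 6.00 to 8.50 CPM at 16 months, and choroid plexus, thalamus, dentate gyrus and oligodendrocyte precursor genes lie to the right at 16 months.

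The calls of the 9 genes changed with the handling of the samples. With offsets for GC content and transcript length, 5 of the 9 were called, where 14.2% of all genes were: Mki67, Top2a and Sox11 higher, and Dlx1 and Dcx lower. The log2 fold changes were then 0.61 for Mki67 (adjusted p = 0.0211), 1.13 for Top2a (adjusted p = 0.0273) and 0.42 for Sox11 (adjusted p = 0.0254). They were −0.12 for Dlx1 (adjusted p = 0.0479) and −0.12 for Dcx (adjusted p = 0.0354). Without 16-month replicate 2, the sample with the lowest correlation with GC content (r = −0.582), 4 of the 9 were called, Mki67, Top2a, Dcx and Sox11, where 12.7% of all genes were. All 9 log2 fold changes kept their sign in these edgeR fits.

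Over the 6 samples, the tested gene whose profile was most like that of Mki67 was Hist1h4h, a histone H4 gene of 10 to 26 counts (root mean square difference 0.0900 of mean-centred log2 CPM). The nearest to Top2a was Otx2, of 4 to 16 counts, at a distance of 0.301, and the nearest to Sox11 was Vangl1, a planar polarity gene, at 0.0440. For Dlx1 it was Akap8l (0.0109), for Dlx2 Htr6 (0.0444), for Dcx Paip2 (0.0122) and for Neurod1 Gm17275 (0.0175). With 17120 genes and 6 samples, near matches arise in any profile, and these are given as a description. Cdk1 and Igfbpl1 had under 10 counts in some samples and were left out.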

How the data were processed

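The members and gene lists were chosen with earlier results of these data known. The deposited values are raw counts per Ensembl gene, 1 whole number per gene and sample, which the authors made by aligning paired reads to mm10 with STAR. The submitters' processing notes name CASAVA 1.8.2, STAR 2.3.0e and featureCounts 1.5.0-p1, whereas the paper names HTSeq, and the files end in HTSeq's summary lines, which were left out. Of uniquely aligned reads, 70.8% to 76.5% lay on genes. The Ensembl release and strand setting are not given in the sources used here. The housing protocol gives the younger age as 3 months; the 6 months of the other labels were used.

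Of 38355 genes, 36602 were matched to GENCODE M21 (GRCm38) by identifier. Counts were tested with edgeR 4.0.16 (TMM factors 0.988 to 1.01, filterByExpr, quasi-likelihood test, Benjamini-Hochberg adjustment at 0.05, R 4.3.3), and all fold changes are 16 over 6 months. The authors' methods use DESeq2; here DESeq2 1.42.0 is an alternative. Intervals and the floor of 3 counts cover counting error or sample spread only, since reads have no molecular identifiers. RPKM uses the union of exons. Alternatives were other scaling and filters, the robust fit, a replicate block, offsets for GC content and length (20 bins), thinning, and each sample left out. No 2 samples were duplicates. Of each list, called genes and otherwise the 2 most abundant and the 2 with the widest fold change are named; regions and cell types are given by counts and sums. Genes outside this rule (Aurkb, Bub1, Ndc80, Cdkn2a, Gsx2, Eomes, Slc17a7, Dlx1as, Elavl2, St8sia4, Slc1a3, Synpr, Cdhr1, Nes, Sox2, Vim, Hopx, Rfx4, Thbs4, Hes1, Tfap2c) were chosen after their values were seen. Igfbpl1 had no promoter entry. Figures used matplotlib 3.10.9.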

Additional observations from a re-analysis of the deposited data

How the results depend on the processing

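No call among the 9 genes was made with DESeq2's size factors, upper quartile factors, the robust fit or at least 10 counts in every sample (which leaves 7 of the 9), all in edgeR, where 286 genes were called in the fit as reported. Without a filter 648 of 27569 genes (2.35%) and 3 of the 9 were called (Mki67, Top2a and Sox11). DESeq2's Wald test called 470 genes (2.67%) and 1 of the 9 (Top2a). With offsets for GC content and length 2425 genes (14.2%) and 5 of the 9 were called. Thinned counts gave 261 genes (1.55%) and 1 of the 9 (Mki67, adjusted p = 0.0491, edgeR). Leaving out 1 sample gave 48 to 2211 genes and 0 to 4 of the 9, the highest without 16-month replicate 2 and 995 genes without 16-month replicate 1. The count fell to 55, 57 and 48 genes without 6-month replicates 1, 2 and 3 and to 58 without 16-month replicate 3. The cause of these changes was not tested.

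The ages share replicate numbers. Deviations of same-numbered samples correlated with r = 0.180, 0.0958 and 0.0351, and those of unlike numbers with r from −0.133 to 0.0379. For replicates 1 and 2 the same number gave the highest r. The 16-month replicate 3 correlated about equally with 6-month replicates 2 (0.0379) and 3 (0.0351). Whether the numbers pair the samples was not tested, and the fit as reported leaves them out. With the replicate block 783 genes (4.57%) and 4 of the 9 were called (Mki67, Top2a, Sox11 and Igfbpl1, the last with adjusted p = 0.0222). With the block and offsets together 3319 genes (19.4%) and 6 of the 9 were called, those 4 with Dlx1 and Dcx (Igfbpl1 adjusted p = 0.00777). The sign of each of the 9 log2 fold changes was kept in all these fits. The median of the neural stem cell genes turned from −0.0105 to 0.0152 with the offsets. Depth limits Cdk1 and Igfbpl1, which had as few as 4 and 6 counts in a sample.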
